A study of Mus musculus with 4 samples.

Results

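The genes described here encode molecular chaperones, the proteins that work with them, and central genes of the unfolded protein response. They were chosen by their symbol in the platform annotation: symbols that start with Hspa, Hspb, Hspd, Hspe, Hsph, Hsp90, Dnaj, Cct2 to Cct8 or Pdia, together with Calr, Canx, Herpud1, Xbp1, Atf4, Ddit3 and St13. Of 8251 genes with at least 1 probe set of a single symbol, 66 met this rule, and 92 of the 12488 probe sets on the array belonged to them. Each gene was represented by its brightest probe set, by the mean over the arrays. The rule uses names and brightness, but it was set with earlier results of these data known. Hsp90ab1, which encodes the other cytosolic Hsp90, was not analysed here.

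Expression was measured by microarray in cells of a cloned mouse Th1 line, CD4 helper T cells that make interferon gamma. The control group is the normal clone, described by the submitters as quiescent, and the anergic group is clone cells made anergic with antibody against CD3 bound to a plate. Each group has 2 arrays. Strain, the length of exposure to the antibody, the time of harvest and any further culture additions are not stated in the sources used here. Nor do the labels say whether 1 clone or several were used, or whether each array had its own culture. The p-values therefore reflect only how far these arrays lie apart, which may be technical. A clone descends from a single cell and stands for that cell's line, not for Th1 cells in general.

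Chaperones bind unfolded or partly folded proteins and let them reach their final shape. Hsp70 proteins take up client proteins with the help of J proteins, which stimulate ATP hydrolysis, and of exchange factors such as Hsp110, which release the nucleotide, and pass some clients on to Hsp90 through adaptor proteins. Chaperonins fold proteins inside a chamber, the CCT ring in the cytosol and Hsp60 with its lid Hsp10 in mitochondria. In the endoplasmic reticulum, the Hsp70 protein BiP (Hspa5), the Hsp90 protein Grp94 (Hsp90b1), calnexin, calreticulin and disulfide isomerases fold membrane and secreted proteins, among them cytokines and receptors of T cells. When unfolded proteins build up there, the unfolded protein response raises these chaperones through Xbp1, Atf6 and Atf4, while stress in the cytosol acts through heat shock factor. Anergic T cells respond poorly when stimulated again.

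The deposited values are linear intensities with a trimmed mean (2% off each end) of 500.3 on every array. Scaling before deposit is inferred from this and is not stated in the sources used here. Spike-in controls were brighter on control array 2, with a geometric mean of 1972 over 9 probe sets against 870 to 1014 on the other arrays. The part of this in the results was not tested, and differences without that array are given for several genes. Of 11 measured T cell markers 10 lay above the filter on low values, with Cd5 as the exception, and all 6 measured Th1 markers did. Of 11 markers of B and plasma cells 6 stayed under an intensity of 200 on all arrays. The list summed to 1384 and 3036 in control and 1492 and 2064 in anergic cells. Its brightest genes were Prdm1, at 267 and 955 in control and 570 and 705 in anergic cells, and Ighm. Ighm was at 266 and 747.5 in control and 163 and 259 in anergic cells. Of 14 macrophage and dendritic cell markers 9 stayed under 200, with sums of 4027 and 4738 in control and 4014 and 5719 in anergic cells. Adgre1, Itgam and Marco stayed under 40 on every array. Others of the list were bright: Cd74 was at 1775 and 1990 in control and 1983 and 2928 in anergic cells. Cd14 was at 764 and 932 in control and 684 and 858 in anergic cells. H2-Eb1 was at 692 and 845.5 in control and 467 and 586 in anergic cells. Cd68, a lysosomal protein gene of that list, was at 71.0 and 91.3 in control and 498 and 532 in anergic cells (adjusted p = 0.0105), and it passed the filter through the anergic arrays alone. Of the Th1 markers, Cxcr3 was at 835 and 867 in control and 219 and 337 in anergic cells (adjusted p = 0.0334). Of the markers of other cells, 6 of 8 for Th2, CD8 T or NK cells, 7 of 9 for granulocytes and mast cells, 3 of 5 for erythroid cells and platelets and 5 of 8 for stroma stayed under 200. Klrd1, from the list for Th2, CD8 T or NK cells, was bright, at 4304 and 5511 in control and 5139 and 4723 in anergic cells. Col1a2, from the stroma list, was at 1242 and 1412 in control and 1015.5 and 1584 in anergic cells. The stroma markers summed to 3518 and 4591 in control and 5831 and 6022 in anergic cells, of which Lum gave 1674 and 2519 in control and 4398.5 and 3752 in anergic cells (adjusted p = 0.115). The part of these markers in the results was not tested.

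Of the 66 genes, 58 had a mean log2 value above the 40th percentile of all probe sets and were tested. For 2 of them the mean of a single group lay below that level, Hspa1b in control and Dnajb2 in anergic cells. Of the 58, 1 rose in anergic cells (1.72%) and 0 fell in limma with Benjamini-Hochberg adjustment over all 5583 genes tested, where 1.33% rose and 0.842% fell (2.17% in all). The gene that rose is St13. In such bulk samples, fewer cells of a type and less RNA per cell cannot be told apart. At an unadjusted p under 0.05, 6 were higher and 6 lower (10.3% each), against 6.32% higher and 6.39% lower among all genes (20.7% and 12.7% in either direction). The 6 higher include Hspa1b, which the filter let through by its anergic arrays alone. Both anergic arrays lay above both control arrays for 10 genes (17.2%) and below them for 14 (24.1%), which is close to the 17.2% and 24.0% of all genes (41.4% and 41.2% in either direction). The median log2 difference, anergic minus control, was -0.02 for the 58 genes and -0.09 for all genes. By sign 27 of the 58 genes were higher and 31 lower, against 2338 higher and 3245 lower of all 5583 genes. The counts by group below are to be read beside these shares of all genes. Centring each array on its median moved the median of all genes by 0.11 and that of the chaperones to 0.08, so signs close to 0 carry no direction here. With that centring, 46 of all genes were called higher and 13 lower, in place of 74 and 47. A difference of under 0.5 in either direction was found for 41 of the 58 genes (70.7%), against 74.1% of all genes.

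**Figure D1:**
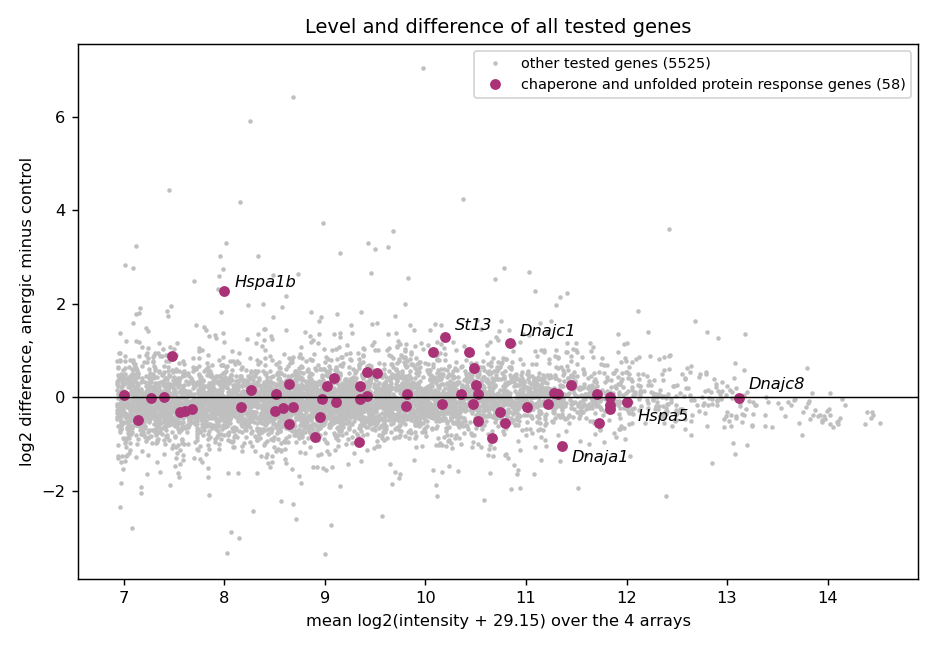
The mean log2(intensity + 29.15) over the 4 arrays (horizontal axis) is plotted against the log2 difference, anergic minus control (vertical axis), for all 5583 tested genes, with the 58 chaperone and unfolded protein response genes in purple. The purple points lie on both sides of 0 at all levels, from Dnaja1 at -1.03 to Hspa1b at 2.26, whose control mean lay below the filter.

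The 8 genes below the filter were Calr, Dnajb5, Dnajb8, Dnajc11, Hspa1l, Hspa2, Hspb1 and Pdia5. Calr, the gene of calreticulin, was at 21.0 and 66.9 on control arrays 1 and 2 and 35.7 and 3.5 on anergic arrays 1 and 2, below the filter in both groups. Hspa1l, a testis Hsp70 gene, had 188 and 49.2 on control arrays 1 and 2 and 21.8 and 135 on anergic arrays 1 and 2, with the arrays of each group far apart. The other 6 lay between 14.5 and 128 on every array. No statement about a change can be made for these 8.

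St13, also named Hip, encodes a protein that binds Hsp70 and slows the release of its client. It was at 709 and 727 on control arrays 1 and 2 and 1925 and 1682 on anergic arrays 1 and 2. Both anergic arrays stood well above both control arrays, and the arrays within each group were close together. The control arrays had a mean of 718 ± 13.0 and the anergic arrays one of 1804 ± 172 (SD, n = 2 in each group). On the log2 scale St13 rose by 1.29 ± 0.25 (SE), or 2.45-fold (limma, adjusted p = 0.0276). A second St13 probe set was at 312 and 356 on control arrays 1 and 2 and 444 and 597 on anergic arrays 1 and 2, a difference of 0.59 ± 0.31 (SE) in the same direction that did not pass among probe sets (adjusted p = 0.548). The call ended with the mean of both probe sets (0.94, adjusted p = 0.127), with centring on the median (1.40, adjusted p = 0.183) and without an intensity trend (adjusted p = 0.127). It also ended without anergic array 1 (1.20) or anergic array 2 (1.39), where a single array stands for the group. Hspbp1, whose product is a nucleotide exchange factor that acts on Hsp70, was at 526 and 398 in control and 281.5 and 316 in anergic cells, a difference of -0.57 ± 0.32 (SE) without a call (adjusted p = 0.528).

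**Figure D2:**
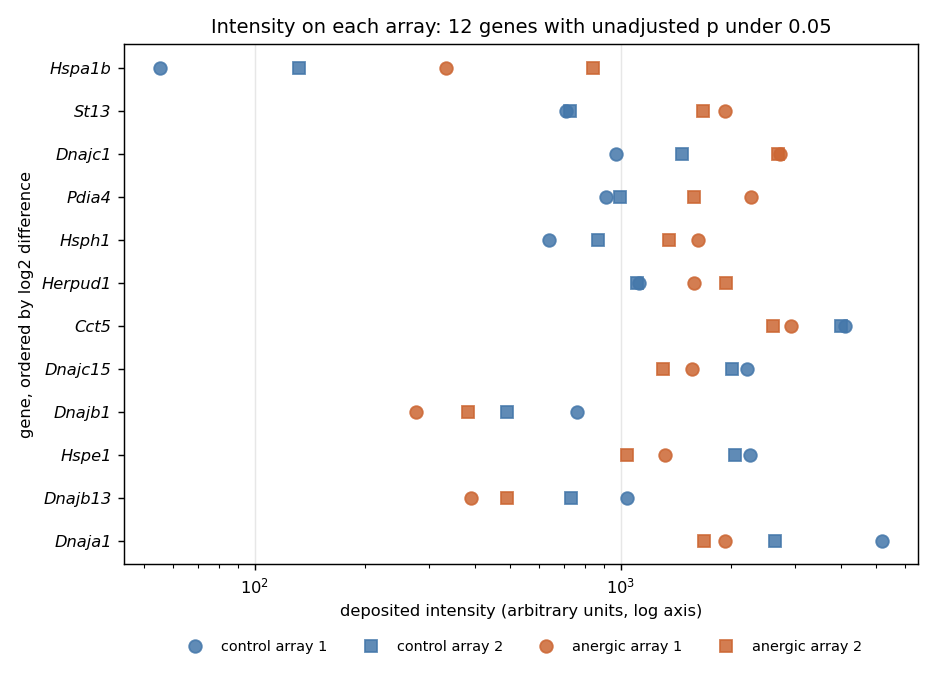
Deposited intensity on a log axis is shown for the 12 genes with an unadjusted p under 0.05, with control arrays in blue, anergic arrays in orange, circles for arrays numbered 1 and squares for those numbered 2. In all 12 genes the groups do not overlap. St13 has a wide gap between tight pairs, Hspa1b is spread widely within each group, and Dnaja1 is far higher on control array 1 (5194) than on the other arrays.

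Within the Hsp70 and Hsp110 family, 9 of 11 genes were tested, 0 passed in limma and 2 had an unadjusted p under 0.05, both higher in anergic cells. Hspa1b, one of the neighbouring genes for the stress-inducible Hsp70, was at 55.3 and 132 on control arrays 1 and 2 and 333 and 839 on anergic arrays 1 and 2. Every anergic array was above every control array, although the values within a group lay more than 2-fold apart. The difference was 2.26 ± 0.50 (SE) and did not pass (adjusted p = 0.0523). The control mean on the log2 scale, 6.87, lay below the level of the filter, 6.93, so the gene was tested through its anergic arrays alone and had to differ. Its size therefore has no rank among the 58. It passed in limma with median centring (2.37, adjusted p = 0.0305). The difference was 1.80 without control array 1, 2.73 without control array 2 and 2.90 without anergic array 1. Without anergic array 2, where Hspa1b was brightest, it was 1.63.

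Hspa1a encodes the other copy of the inducible Hsp70 and lies next to Hspa1b. It was at 59.6 and 150.5 on control arrays 1 and 2 and 70.8 and 141 on anergic arrays 1 and 2. The groups overlapped fully and the arrays numbered 2 were the higher of each pair. Its difference was 0.05 ± 0.55 (SE), with a 95% confidence interval of -1.18 to 1.28, which overlaps that of Hspa1b (1.15 to 3.38). Whether the 2 genes differ in response was not tested. Because they encode nearly the same protein, how far each probe set detects the other transcript cannot be told from these values.

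The 250 bases before the start of each gene are printed because these near-identical stretches precede the neighbouring genes whose arrays were just described. They come from RefSeq on GRCm38.p6, Hspa1b from chr17:34959239-34959488 and Hspa1a from chr17:34972157-34972406, both on the minus strand. Of 250 positions 247 (98.8%) are the same. Capitals mark the CCAAT box, read here on the opposite strand as ATTGG.
Hspa1b: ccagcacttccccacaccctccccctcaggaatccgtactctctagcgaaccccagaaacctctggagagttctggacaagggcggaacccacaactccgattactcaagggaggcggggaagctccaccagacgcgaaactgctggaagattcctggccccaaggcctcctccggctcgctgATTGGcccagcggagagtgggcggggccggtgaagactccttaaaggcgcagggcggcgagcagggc
Hspa1a: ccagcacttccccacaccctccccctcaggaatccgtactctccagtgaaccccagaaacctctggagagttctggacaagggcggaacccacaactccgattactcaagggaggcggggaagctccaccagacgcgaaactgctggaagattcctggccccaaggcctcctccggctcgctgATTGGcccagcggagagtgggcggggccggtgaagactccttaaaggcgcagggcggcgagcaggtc
No match to the heat shock element as searched (GAA, any 2 bases, TTC, any 2 bases, GAA, on both strands) lies in either stretch, which says only that these letters are not in this window.

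Hsph1 encodes Hsp110, the exchange factor of Hsp70. It was at 636 and 866 on control arrays 1 and 2 and 1624 and 1356 on anergic arrays 1 and 2. Both anergic arrays were higher than both control arrays, with a difference of 0.97 ± 0.27 (SE) that did not pass (adjusted p = 0.128). Without control array 2 the difference was 1.19. Hspa8, the constitutive Hsc70, was at 3819 and 3875 in control and 3741 and 3127 in anergic cells, a difference of -0.17 ± 0.23 (SE) (adjusted p = 0.875) with a 95% interval of -0.67 to 0.34. Hspa4, another gene of the Hsp110 group, differed by 0.04 ± 0.28 (SE), and its relatives Hspa4l and Hspa14 by 0.54 ± 0.36 (SE) and 0.29 ± 0.37 (SE). None of these 3 passed, and the groups overlapped in each.

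Of the Hsp90 genes, Hsp90aa1 encodes the inducible cytosolic form that matures kinases and steroid receptors. It was at 4023 and 3278 on control arrays 1 and 2 and 4352 and 3049.7 on anergic arrays 1 and 2. In both groups the arrays numbered 1 were higher, and the difference was 0.00 ± 0.26 (SE) (adjusted p = 0.996), with a 95% interval of -0.57 to 0.58. The endoplasmic reticulum form is described with its compartment.

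J proteins were the most numerous group, with 27 genes of which 24 were tested. None passed in limma, and 5 had an unadjusted p under 0.05, 1 higher and 4 lower in anergic cells. Among all genes 6.32% were higher and 6.39% lower at that p. By sign 9 were higher and 15 lower on the deposited scale, 12 and 12 after centring, and 11 and 13 with quantile normalization. Of all genes 2338 were higher and 3245 lower on the deposited scale, 2919 and 2664 after centring, and 2616 and 2967 with quantile normalization. Dnaja1, a cytosolic partner of Hsc70, was at 5194 and 2646 on control arrays 1 and 2 and 1930.5 and 1686 on anergic arrays 1 and 2. Its difference of -1.03 ± 0.32 (SE) rested on the high control array 1. Without that array it was -0.55, and without control array 2 it was -1.51. Dnajb1, the Hsp40 that heat shock induces together with Hsp70, was at 762 and 488 on control arrays 1 and 2 and 276 and 384 on anergic arrays 1 and 2, a difference of -0.85 ± 0.34 (SE) (adjusted p = 0.315). The estimate was thus below 0 for Dnajb1 and above 0 for Hsph1, and the difference between them was not tested. Hspa1b is left out of this comparison because the filter fixed its direction.

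Dnajb13, known as a protein of sperm flagella, was at 1042 and 733 in control and 391 and 489.7 in anergic cells (difference -0.95 ± 0.30 (SE), adjusted p = 0.186). Without control array 2 Dnajb13 was at -1.20. Its second probe set was too dim to test, and with the mean of both the difference was -0.16. Dnajb6, which keeps aggregation-prone proteins soluble, was at 4552 and 3408 in control and 3961 and 2814 in anergic cells, a difference of -0.24 ± 0.26 (SE). Dnajc8, a J protein of the spliceosome, was at 9526 and 8367 in control and 8522.5 and 9071.5 in anergic cells, with a difference of -0.02 ± 0.22 (SE) and a 95% interval of -0.50 to 0.46, among the narrowest here. Dnajc2, a J protein of the ribosome, and Dnajc5, which acts in vesicle release, had both anergic arrays above both control arrays without a call (0.52 ± 0.28 (SE) and 0.41 ± 0.28 (SE)). Dnaja2 had them below (-0.24 ± 0.32 (SE)). The second probe set of Dnajc2 was at 595 and 811 in control and 629 and 646 in anergic cells. Its groups overlapped, with a difference of -0.12 ± 0.28 (SE). The other 8 cytosolic, nuclear or unassigned J protein genes tested lay between -0.48 (Dnajb2) and 0.08 (Dnajc7), and none of them passed.

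**Figure D3:**
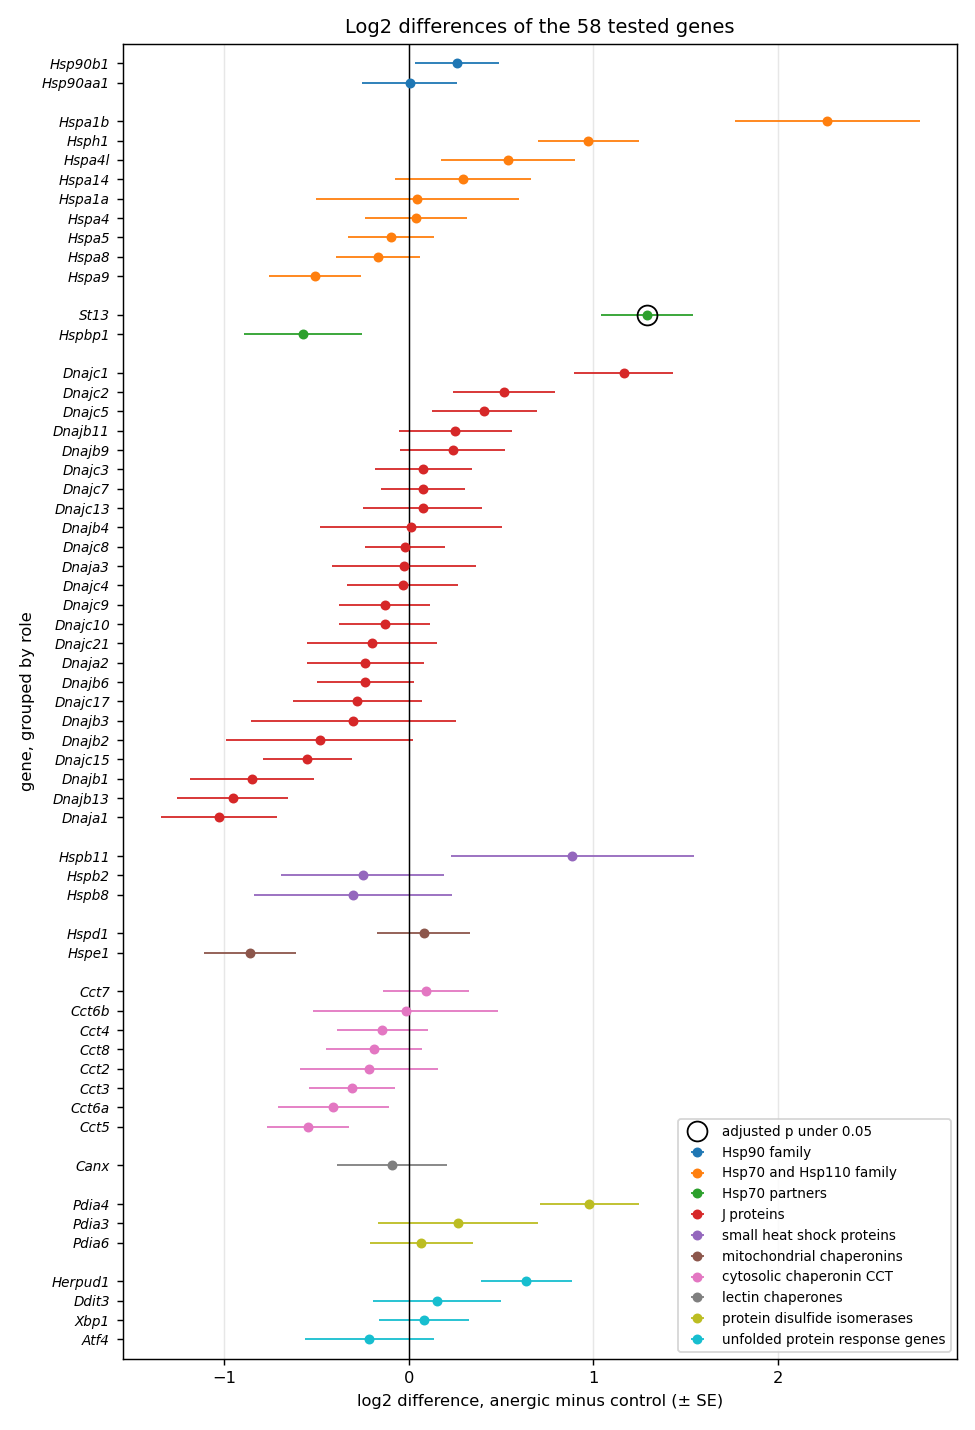
The log2 difference, anergic minus control, with its SE is shown for the 58 tested genes, grouped and coloured by role and ordered by size within each group. The ring marks St13, the single gene past the threshold. On the left of 0 lie 7 of the 8 CCT genes and 15 of the 24 J protein genes (6 and 12 after centring), and on the right all 3 tested disulfide isomerases. Of all 5583 tested genes 3245 were lower by sign, and 2664 after centring.

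Neither mitochondrial chaperonin gene passed. Hspe1, which encodes the Hsp10 lid, was at 2259.9 and 2055 on control arrays 1 and 2 and 1319 and 1044 on anergic arrays 1 and 2. Both anergic arrays were lower than both control arrays, with a difference of -0.86 ± 0.25 (SE) (adjusted p = 0.141). Hspd1, which encodes the Hsp60 barrel, was at 2673 and 3891 on control arrays 1 and 2 and 3550.4 and 3284 on anergic arrays 1 and 2, and its groups overlapped (0.08 ± 0.25 (SE), adjusted p = 0.949). The 95% intervals were -1.42 to -0.30 for Hspe1 and -0.48 to 0.65 for Hspd1, which overlap, and the difference between the genes was not tested.

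Hspd1 and Hspe1 start next to each other and run in opposite directions, so one stretch of DNA lies before both. It holds the heat shock element, of which matches were found before 3 of the genes described here (Hspd1, Hspe1 and Dnajb6). The site is shown because both chaperonin genes share it, from RefSeq on GRCm38.p6, chr1:55088053-55088082, plus strand, with the overlapping matches in capitals.
Hspe1 and Hspd1: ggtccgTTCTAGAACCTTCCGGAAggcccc
The element was found in 4 of 71 windows of 250 bases before the starts of these genes (5.63%) and in 0.466% of all 32851 such windows. These shares count windows, not separate sites. The windows of Hspd1 and Hspe1 hold the same stretch, and those of Dnajb6 hold the same site (chr5:29735852-29735864). The 3 genes with it differed by -0.24 (Dnajb6), 0.08 (Hspd1) and -0.86 (Hspe1), and none of them passed.

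Hspa9, the mitochondrial Hsp70 that also drives protein import, was at 1821 and 1642 on control arrays 1 and 2 and 1339.8 and 1087 on anergic arrays 1 and 2. Both anergic arrays were lower (-0.51 ± 0.25 (SE), adjusted p = 0.454), and the same held for Dnajc15, an import motor protein, at 2213 and 2019 in control and 1573 and 1310.4 in anergic cells (-0.55 ± 0.24 (SE), adjusted p = 0.387). Dnaja3, a partner of Hspa9, and Dnajc4 were at -0.03 and -0.03 with overlapping groups. Of the 6 tested mitochondrial genes 0 passed in limma and 2 had an unadjusted p under 0.05, both lower. Among all genes 6.39% were lower at that p. The median of the 6 genes was -0.27 on the deposited scale, -0.27 with quantile normalization and -0.16 after centring. For all genes it was -0.09, -0.03 and 0.02 in the same order. By sign 1 of the 6 was higher and 5 lower on the deposited scale, 2 and 4 with quantile normalization, and 3 and 3 after centring. Of all 5583 genes 3245, 2967 and 2664 were lower in that order.

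The CCT ring folds actin and tubulin. All 8 of its genes covered by the rule were tested and 0 passed in limma, with Cct5 at an unadjusted p under 0.05. Their median was -0.20, and 7 of 8 were lower in anergic cells on the deposited scale and 6 of 8 after centring or quantile normalization. Of all 5583 genes 3245 were lower on the deposited scale, 2664 after centring and 2967 with quantile normalization. Cct5 was at 4103.5 and 4011 on control arrays 1 and 2 and 2926 and 2617 on anergic arrays 1 and 2, with both anergic arrays clearly below the control arrays (-0.55 ± 0.22 (SE), adjusted p = 0.331). Its second probe set was at 346 and 350.2 in control and 199 and 156 in anergic cells, a difference of -0.88 ± 0.34 (SE) in the same direction (adjusted p = 0.362). Cct3, Cct6a and Cct8 also had both anergic arrays below both control arrays, at -0.31, -0.41 and -0.19. The dimmer probe sets of Cct3 gave -0.30 and, with overlapping groups, 0.11. In Cct2, Cct4, Cct6b and Cct7 the groups overlapped. Cct7 was the one CCT gene with a difference above 0 (0.09 ± 0.23 (SE)), from 2583 and 2188 in control and 2621 and 2455 in anergic cells. Tcp1, the subunit whose symbol lies outside the rule, was at 449 and 581 in control and 278 and 348 in anergic cells (-0.67 ± 0.32 (SE), adjusted p = 0.431).

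In the endoplasmic reticulum 14 genes were measured and 12 tested. None passed in limma, and 3 had an unadjusted p under 0.05, all of them higher in anergic cells: Dnajc1, Pdia4 and Herpud1. Among all genes 6.32% were higher at that p. By sign 9 of 12 were higher, 11 of 12 after centring and 9 of 12 with quantile normalization, and the median was 0.245, beside -0.09 for all genes. Of all 5583 genes 2338 were higher by sign, 2919 after centring and 2616 with quantile normalization. Hspa5, which encodes BiP, was at 4192 and 4253.5 on control arrays 1 and 2 and 4476 and 3480.3 on anergic arrays 1 and 2. The groups overlapped, and the difference of -0.10 ± 0.23 (SE) had a 95% interval of -0.62 to 0.42 (adjusted p = 0.93). Hsp90b1, which encodes Grp94 and is needed to fold integrins and Toll-like receptors, was at 2609 and 2448 on control arrays 1 and 2 and 3148 and 2925 on anergic arrays 1 and 2, with both anergic arrays slightly higher (0.26 ± 0.23 (SE), adjusted p = 0.74). Canx, the gene of the membrane-bound lectin chaperone calnexin, was at 486 and 603 on control arrays 1 and 2 and 446 and 574 on anergic arrays 1 and 2 (-0.09 ± 0.30 (SE), adjusted p = 0.951).

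The endoplasmic reticulum stress element, CCAAT and CCACG with 9 bases between them, is the site through which Atf6 and Xbp1 act on such genes. It was found before 6 of these genes, in 6 of 71 windows (8.45%), against 0.113% of all 32851 windows. Its 7 sites are shown because they tell which of the genes hold the element. Each is written from CCAAT to CCACG with these 2 parts in capitals, from RefSeq on GRCm38.p6.
Hspa5, chr2:34772025-34772043, plus strand: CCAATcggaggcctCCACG
Calr, chr8:84847075-84847093, plus strand: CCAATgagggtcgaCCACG
Hsp90b1, chr10:86705638-86705656, minus strand: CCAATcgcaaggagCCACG
Hsp90b1, chr10:86705533-86705551, plus strand: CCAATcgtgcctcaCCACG
Canx, chr11:50325800-50325818, minus strand: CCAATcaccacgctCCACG
Pdia6, chr12:17266491-17266509, plus strand: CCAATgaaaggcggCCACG
Dnajc3, chr14:118937827-118937845, plus strand: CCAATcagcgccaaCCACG
Calr was too dim to test, and the other 5 genes with a site differed by between -0.10 and 0.26 (median 0.07), with 0 calls. A match describes the letters and shows no binding.

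The site stands closest to the gene start in Hspa5, 65 to 47 bases before it. The 250 bases before that start (chr2:34771840-34772089, plus strand) and before Hsp90b1 (chr10:86705445-86705694, minus strand) are printed in full because they carry the element among several CCAAT boxes, 4 and 5 in number. Capitals mark every match to either motif.
Hspa5: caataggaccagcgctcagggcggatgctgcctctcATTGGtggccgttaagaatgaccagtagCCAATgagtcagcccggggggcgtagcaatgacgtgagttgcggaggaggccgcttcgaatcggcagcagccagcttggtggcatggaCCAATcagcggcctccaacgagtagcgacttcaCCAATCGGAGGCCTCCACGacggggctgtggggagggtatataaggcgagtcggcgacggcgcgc
Hsp90b1: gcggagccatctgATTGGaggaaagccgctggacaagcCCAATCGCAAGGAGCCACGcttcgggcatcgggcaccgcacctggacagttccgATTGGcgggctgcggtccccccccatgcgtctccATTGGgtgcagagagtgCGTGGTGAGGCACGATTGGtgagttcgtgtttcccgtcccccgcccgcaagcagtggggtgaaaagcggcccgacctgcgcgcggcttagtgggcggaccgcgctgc
A CCAAT box lies in 47.9% of the windows of these genes and in 33.8% of all windows. The unfolded protein response element TGACGTGG was found in 0 of the 71 windows, against 0.563% of all, and the amino acid response element TGATGCAA before Herpud1 alone. Of the 66 genes, 57 had a promoter in the table.

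Pdia4, a disulfide isomerase of the endoplasmic reticulum, was at 911 and 997 on control arrays 1 and 2 and 2277 and 1591 on anergic arrays 1 and 2. Both anergic arrays were higher, array 1 more so, with a difference of 0.98 ± 0.27 (SE) that did not pass (adjusted p = 0.117). Without control array 2 it was 1.04. Pdia3, which works with calnexin and in the loading of MHC class I, was at 1567 and 1070.1 on control arrays 1 and 2 and 2649 and 920.4 on anergic arrays 1 and 2. Anergic array 1 was high and anergic array 2 the lowest of the 4, so the difference of 0.27 ± 0.43 (SE) has a wide error. Pdia6, which also tunes the sensors of the unfolded protein response, was at 809.6 and 901 in control and 758 and 1061 in anergic cells (0.07 ± 0.28 (SE)), and its 2 other probe sets gave 0.26 and 0.93, also without a call. Pdia5 was below the filter.

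Dnajc1, a membrane J protein that recruits BiP, was at 969.7 and 1471 on control arrays 1 and 2 and 2732 and 2698 on anergic arrays 1 and 2. The 2 anergic arrays were nearly equal and above both control arrays (1.16 ± 0.27 (SE), adjusted p = 0.0622). Without control array 2 the gene was at 1.46. Its second probe set did not show this, with 283 and 204 on control arrays 1 and 2 and 189 and 161 on anergic arrays 1 and 2 and a difference of -0.41 ± 0.37 (SE). With the mean of both, the gene was at 0.38 (adjusted p = 0.633). The remaining J proteins of the endoplasmic reticulum were nearer 0: Dnajb9, a partner of BiP that the response induces, was at 586 and 553 in control and 777 and 588 in anergic cells (0.24 ± 0.29 (SE)). Dnajb11, Dnajc3 (an inhibitor of the kinase Perk) and Dnajc10 (a disulfide reductase) differed by 0.25, 0.08 and -0.13.

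Herpud1 encodes a membrane protein of the degradation machinery and is strongly induced in the unfolded protein response. It was at 1124 and 1108 on control arrays 1 and 2 and 1585 and 1936 on anergic arrays 1 and 2. The control arrays lay close together and both anergic arrays were higher (0.64 ± 0.25 (SE), 1.56-fold, adjusted p = 0.306). The difference was 0.78 without anergic array 1 and 0.50 without anergic array 2. The transcription factors of the response did not differ beyond their spread. Xbp1, whose mRNA is spliced by Ire1, was at 1533 and 1287 on control arrays 1 and 2 and 1448.5 and 1531 on anergic arrays 1 and 2 (0.08 ± 0.24 (SE), adjusted p = 0.944), and the probe set does not report splicing. Atf4, controlled largely at translation, was at 3155 and 1513 on control arrays 1 and 2 and 2243 and 1579 on anergic arrays 1 and 2. Control array 1 was the highest of the 4, and the difference was -0.21 ± 0.35 (SE) (adjusted p = 0.896). Ddit3, which encodes the pro-apoptotic factor Chop, was at 240.1 and 286 on control arrays 1 and 2 and 343.5 and 253 on anergic arrays 1 and 2 (0.15 ± 0.35 (SE), adjusted p = 0.923), with a 95% interval of -0.62 to 0.93.

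The small heat shock genes were dim. Hspb1, the gene of Hsp27, was at 50.9 and 62.2 on control arrays 1 and 2 and 31.0 and 32.7 on anergic arrays 1 and 2 and below the filter. Hspb2 was at 131 and 282 in control and 163 and 154.5 in anergic cells (-0.25 ± 0.44 (SE)). Hspb8 was at 105 and 299 in control and 94.9 and 203.5 in anergic cells (-0.30 ± 0.54 (SE)), and in both genes the groups overlapped. Hspb11, which shares the name but encodes a protein of intraflagellar transport, was at 32.2 and 250.3 on control arrays 1 and 2 and 162 and 278 on anergic arrays 1 and 2. Control array 1 was far below the other 3, and its difference of 0.89 ± 0.66 (SE) turned to -0.21 without that array.

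Several genes had more than 1 probe set, and these did not always agree. Of 19 such genes, 13 had at least 2 tested probe sets, and in 5 of the 13 all differences had the same sign. The signs were mixed in Canx, Cct3, Dnajb6, Dnajc1, Dnajc2, Dnajc3, Dnajc8 and Hspa4. The widest gaps were in Dnajc1 (1.57 between its probe sets) and Dnajb6 (1.01), and the median gap was 0.41. The dimmer probe set of Dnajb6 was at 969.6 and 888.5 on control arrays 1 and 2 and 1801 and 1426 on anergic arrays 1 and 2, a difference of 0.77 ± 0.25 (SE) (adjusted p = 0.266 among probe sets), while the brighter gave -0.24. In Hspa4 the 4 tested probe sets lay between -0.0042 and 0.63. Of the 76 tested probe sets of these genes, 1 passed among 7453, where 1.34% did, and it was that of St13 (adjusted p = 0.0496).

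**Figure D4:**
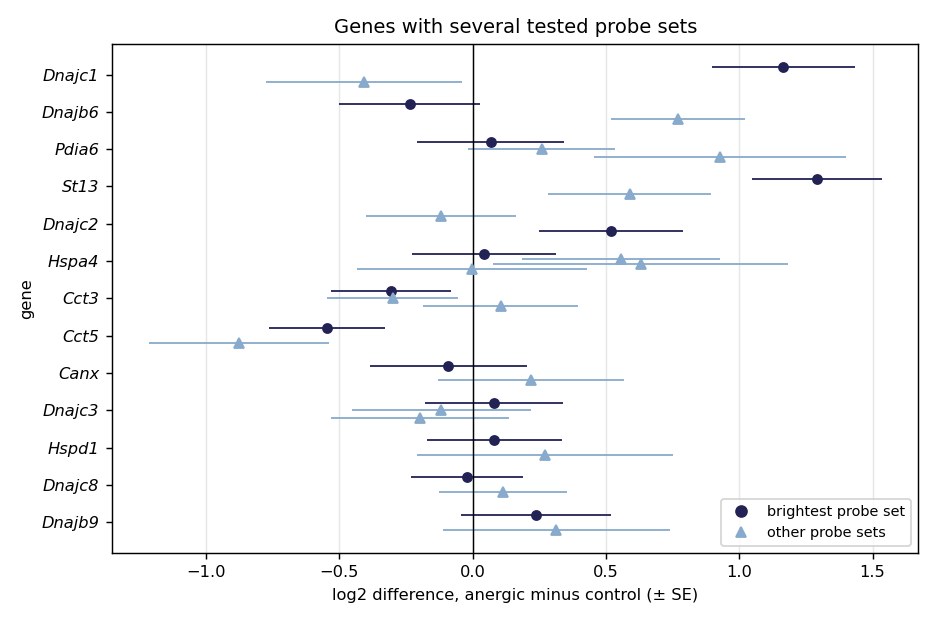
For the 13 genes with at least 2 tested probe sets, the log2 difference of each probe set, anergic minus control, is shown with its SE, with the brightest as a dark circle and the others as light triangles. The probe sets of St13, Cct5, Pdia6, Hspd1 and Dnajb9 lie on one side of 0, and those of Dnajc1 and Dnajb6 on opposite sides.

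Other genes of protein folding and of the stress responses were taken from lists that share no gene with the 66. Tcp1, given with the CCT ring, is a member of the first of them. Of 28 tested cytosolic co-chaperones and heat shock regulators 0 passed in limma and 1 had an unadjusted p under 0.05, namely Pfdn6, a prefoldin subunit that delivers clients to CCT (1124 and 1382 in control, 787 and 829.9 in anergic cells, -0.61 ± 0.26 (SE)). Naca, which guards new chains at the ribosome, was next by p (-0.51 ± 0.23 (SE)). The median of this list was -0.02, and 0.08 after centring. Of 63 genes of endoplasmic reticulum folding, translocation and degradation 1 rose and 1 fell, and the median was 0.10. Rpn2, a subunit of the complex that attaches sugars to new proteins, was at 2888 and 2535 on control arrays 1 and 2 and 6869 and 5468 on anergic arrays 1 and 2 and rose by 1.17 ± 0.23 (SE) (adjusted p = 0.0318), although after centring 0 genes of this list rose. Prdx4, an oxidase of this compartment, was at 1394 and 1291 on control arrays 1 and 2 and 139 and 225 on anergic arrays 1 and 2 and fell, with a difference of -2.73 ± 0.31 (SE) (adjusted p = 0.00187).

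Among 22 sensors and regulators of the unfolded protein response 0 passed in limma. An unadjusted p under 0.05 was found for 3, of which 2 were higher and 1 lower in anergic cells. By sign 6 of the 22 were higher and 16 lower, 9 and 13 after centring, and 7 and 15 with quantile normalization. Of all 5583 genes 3245 were lower on the deposited scale, 2664 after centring and 2967 with quantile normalization. The median of the list was -0.16 (-0.05 after centring). Creb3l1, a membrane-bound factor related to Atf6, was at 640.0 and 682 in control and 1032 and 1291 in anergic cells (0.78 ± 0.27 (SE), adjusted p = 0.228). Ppp1r15a, which ends the translation block of the response, was at 516.5 and 515 in control and 941 and 737.5 in anergic cells (0.66 ± 0.28 (SE), adjusted p = 0.359). Eif2b1, the lower gene, was at 373 and 491 in control and 220 and 269.5 in anergic cells (-0.75 ± 0.33 (SE), adjusted p = 0.392). Of 31 targets of Atf4 and the amino acid response 0 passed in limma, with a median of -0.11 (-0.01 after centring). An unadjusted p under 0.05 was found for 5, 1 higher and 4 lower in anergic cells. Among all genes 6.32% were higher and 6.39% lower at that p. Gadd45b, a stress gene, was at 885 and 447.5 in control and 1743 and 1221 in anergic cells (1.17 ± 0.35 (SE)). Slc38a2, an amino acid transporter gene, was at 595 and 1016 in control and 302 and 389 in anergic cells (-1.12 ± 0.34 (SE)). The others, all lower, were Ddit4 (-1.44), Nupr1 (-1.35) and Tars (-0.64), which are named after their values were seen. Nupr1 was at 244.5 and 125 in control and 29.1 and 82.5 in anergic cells. Both anergic values lay below the level of the filter, about 92.4 in intensity. Nupr1 was thus tested through its control arrays alone and had to differ, so its direction and size carry no weight. Of 23 genes of mitochondrial folding, import and proteolysis 0 passed in limma and 2 had an unadjusted p under 0.05, the import genes Timm8b (0.76 ± 0.25 (SE)) and Timm23 (-0.69 ± 0.26 (SE)). The median of that list was 0.03 (0.13 after centring).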

How the data were processed

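Per the labels' protocols, total RNA was taken with Trizol and made into biotinylated cRNA for the 4 arrays. The deposited values are linear intensities, 1 for each of 12488 probe sets. How the authors summarised and scaled them is not given in the sources used here. Probe sets were named from the platform annotation: 10833 had 1 symbol, 396 several and 1193 none listed, and 66 were controls. The symbol of 10817 was found by gene ID in RefSeq and 0 changed.

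Each gene was represented by its brightest probe set, and log2(intensity + 29.15) was tested with limma 3.58.1 in R 4.3.3 (lmFit, eBayes with an intensity trend) for the 5583 genes whose mean log2 value passed the 40th percentile of all probe sets (about 92.4 in intensity). P-values were adjusted by Benjamini-Hochberg over those genes, with a threshold of 0.05. Fold changes are on the log2(value + pseudocount) scale, which understates changes of low genes. With 2 arrays per group, an exact permutation test cannot give a two-sided p below 0.333. Levels of different probe sets are not comparable. The number of arrays limits the precision. The fit was tested on simulated data.

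The genes and lists were chosen with earlier results of these data known. Named with values on all arrays were genes past the threshold or with an unadjusted p under 0.05, the 2 brightest of each role and a list of central chaperones. Of other lists, genes past the threshold and the 2 with the smallest p were named. Further genes, among them Hspa1a, Hspa1l, Hspb1, Tcp1 and the second probe sets, were added after their values were seen.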

Additional observations from a re-analysis of the deposited data

How the results depend on the processing

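Alternatives covered the pseudocount, the filter, the normalization, the probe set rule, the intensity trend, a block for the array number and each array left out. Of 400 values of the 31 named genes, 348 kept their direction and side of the threshold, 18 newly passed, 5 no longer passed and 29, from 14 genes, changed sign, 0 of them past the threshold.

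The count of chaperone genes that rose, 1 in the report, was 0 with the mean of probe sets and 0 without an intensity trend. With an array left out, the lone array of a group is assumed to vary like the others, so counts of calls are not given for those fits alone. The difference of Dnajc1 then ran from 0.87 without control array 1 to 1.46 without control array 2. The count of chaperone genes that fell was 0 with centring and 0 with quantile normalization. With an array left out, Dnaja1 ranged from -1.51 to -0.55 and Dnajb13 from -1.20 to -0.71. The median difference of these genes was 0.082 with centring and -0.10 to 0.040 with an array left out, lowest without control array 1. Of all genes, 121 were called, against 59 with centring, 41 without an intensity trend and 50 to 281 with an array left out, where the lone array of a group is assumed to vary like the others. The cause was not tested.

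Control array 1 and anergic array 1 deviated together from their groups (r = 0.52 across all genes), but the labels share only a number between groups and there are 2 pairs. With the replicate number as a block, 720 of all 5583 genes were called, against 121 without it. Of the 58 chaperone genes 6 rose (Dnajc1, Herpud1, Hspa1b, Hsph1, Pdia4 and St13) and 4 fell (Dnaja1, Dnajb1, Dnajb13 and Hspe1). The filter fixed the direction of Hspa1b, so its rise carries no weight.

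Signs turned in the cases below, where the largest difference in the main fit was the 0.89 of Hspb11. Canx was at 0.063 with the mean of probe sets and 0.014 with centring, and Dnajb6 at 0.27 with the mean. Dnajc8 was at 0.047 with the mean, 0.084 with centring and 0.067 with quantile normalization. Hsp90aa1 was at -0.051 with the mean and -0.063 with quantile normalization, and Hspa5 at 0.0098 with centring. With an array left out, Atf4 ranged from -0.74 to 0.31, Canx from -0.26 to 0.079, Cct7 from -0.026 to 0.21, Ddit3 from -0.046 to 0.35, Dnajb6 from -0.48 to 0.0081, Dnajc8 from -0.12 to 0.071, Hsp90aa1 from -0.25 to 0.26, Hspa5 from -0.28 to 0.084, Hspb11 from -0.21 to 1.98, Hspb2 from -0.73 to 0.23, Hspd1 from -0.19 to 0.35, Pdia3 from -0.48 to 1.02, Pdia6 from -0.17 to 0.30 and Xbp1 from -0.041 to 0.21.

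Dim probe sets set a limit: 8 of the 66 genes, Calr among them, could not be tested, and the filter and pseudocount leave the lowest genes compressed towards 0.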
